A study of Mus musculus with 2 samples.

Results

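Pi16, Dlk1, Cd34, Cd248, Sfrp2 and Zfp423, 6 genes known from adipose progenitors and stroma, were followed in inguinal white fat, a subcutaneous depot of the groin, of H4-TG and wild-type (WT) mice. They were taken from the authors' deposited table of probes higher in H4-TG, as the rows whose gene symbol is exactly one of these names, and each was joined by its probe identifier to the deposited value table. The 6 genes, each with 1 probe, stand among 800 genes that could be named from that table and 35556 probes on the array. A probe here means a transcript cluster, the unit of the deposited identifiers and signals, and not a single oligonucleotide. The WT group was male wild-type mice and the H4-TG group male H4-TG mice, both aged about 8 weeks and kept at room temperature with normal chow as food, with RNA of 4 animals pooled on 1 gene array per genotype. The labels do not spell out the name H4-TG, and they give neither the strain nor a promoter or cell type that drives a transgene. The genes were chosen from the same H4-TG against WT contrast that is described, so their differences are given as a description with no test, and with 1 array of pooled RNA per genotype there is no spread between replicates.

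White fat holds, beside its fat cells, a stroma of fibroblast-like progenitors from which new fat cells form. In mouse fat, Pi16 marks interstitial progenitors, which lie in the connective tissue around the depot and give rise to preadipocytes committed to the fat lineage. Wnt signals hold progenitors back from becoming fat cells, bone morphogenetic proteins (BMPs) push them forward, and secreted frizzled-related proteins bind Wnt ligands outside the cell. In a whole-tissue measurement such as this one, more cells of a type and more RNA per cell cannot be told apart. No adipocyte marker, of 18 on the list, was in the authors' table, which lists only higher probes, so these named values do not check the tissue label.

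All 6 genes had a higher log2 signal on the H4-TG array than on the WT array. Their differences, H4-TG minus WT on the deposited log2 scale, ran from 0.59 for Zfp423 to 1.16 for Sfrp2, with a median of 0.79, which is 1.73-fold. The median difference over all 35556 probes was -0.01, with quartiles of -0.24 and 0.20, and that over the 800 named genes, all of them from the table of higher probes, was 0.71. At least 1.5-fold higher were 6 of 6, against 4.27% of all probes and 2.31% of probes with a mean signal at or above the median. At least 2-fold higher was 1 of 6, Sfrp2, against 0.892% of all probes and 0.63% of those at or above the median. Membership of the authors' table, whose lowest fold is 1.5, fixes the first count and keeps the ranks by difference over all probes, given below, high. Over all probes 1518 were at least 1.5-fold higher while that table has 869 rows, so some probes past 1.5-fold have no row. By difference among the 800 named genes, Sfrp2 was at rank 87, Pi16 at 121 and Cd248 at 176. Dlk1 was at rank 444, Cd34 at 513 and Zfp423 at 749. The smallest and the largest of the 6 folds differed by a factor of 1.48. All 6 probes had a mean signal above 6.31, the median over all probes, and 5, all but Dlk1, were in the top 40% of probes.

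**Figure D1:**
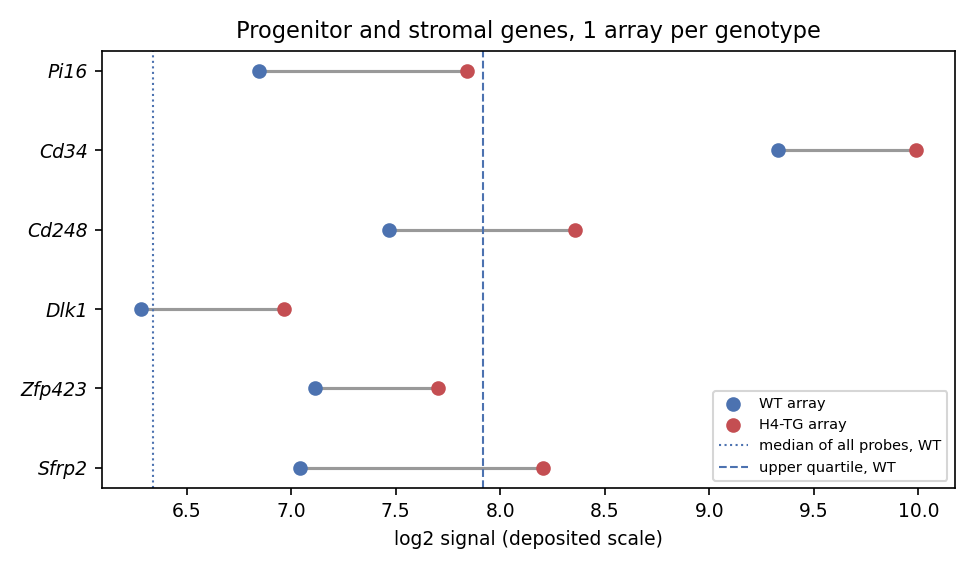
Log2 signal (deposited scale, x axis) of each of the 6 genes on the WT array (blue) and the H4-TG array (red), 1 array of pooled RNA per genotype, with the median (dotted) and upper quartile (dashed) of all probes on the WT array. Every red point lies to the right of its blue point, and Cd34 alone lies beyond the WT upper quartile of 7.92 on both arrays.

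The interstitial progenitor marker Pi16, a secreted or membrane-anchored peptidase inhibitor homologue also found in fibroblasts of many organs, had a log2 signal of 6.84 in WT and 7.84 in H4-TG. H4-TG was thus the higher array, by 1.00 on the log2 scale or 1.997-fold. The authors' deposited table gives this fold as 2, so whether Pi16 counts as 2-fold higher turns on rounding. Among all probes Pi16 stood at rank 14919 by signal on the WT array, counted from the brightest, and at rank 8772 on the H4-TG array, and its difference was at rank 318. A rank places a probe by its brightness on the array and does not compare transcript amounts between genes, since probes differ in their response. The transcript cluster of Pi16 spans 29455827 to 29466358 on chromosome 17 in the authors' table, which names no genome build.

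The 250 bases before the RefSeq start of Pi16 in GRCm38.p6, chr17:29318632-29318881 on the plus strand, are shown with those of Dlk1 (chr12:109452573-109452822, plus) and Sfrp2 (chr3:83766071-83766320, plus), since these 3 genes stand for the interstitial, preadipocyte and Wnt roles.
Pi16: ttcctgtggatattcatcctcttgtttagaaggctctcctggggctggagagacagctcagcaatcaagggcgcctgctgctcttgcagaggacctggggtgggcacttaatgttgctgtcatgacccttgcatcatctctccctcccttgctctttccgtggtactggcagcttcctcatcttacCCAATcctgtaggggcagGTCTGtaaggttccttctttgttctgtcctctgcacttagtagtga
Dlk1: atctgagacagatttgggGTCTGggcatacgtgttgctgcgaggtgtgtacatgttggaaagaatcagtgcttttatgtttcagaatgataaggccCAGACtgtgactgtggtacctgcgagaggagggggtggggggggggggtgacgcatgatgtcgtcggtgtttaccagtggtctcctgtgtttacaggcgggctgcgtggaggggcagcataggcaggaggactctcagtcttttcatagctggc
Sfrp2: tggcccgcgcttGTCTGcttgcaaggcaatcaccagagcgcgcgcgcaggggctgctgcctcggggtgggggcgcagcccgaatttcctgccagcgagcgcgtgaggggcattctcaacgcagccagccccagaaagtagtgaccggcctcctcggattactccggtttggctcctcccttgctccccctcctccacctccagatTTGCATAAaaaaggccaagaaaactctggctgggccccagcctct
Capitals mark matches, on either strand, to any of 7 letter patterns, where N is any base. These are the TATA box (letters TATAAA), the CCAAT box, the GC box (letters GGGCGG), the E-box (letters CANNTG), the core bound by EBF factors (letters CCCNNGGG), the core bound by C/EBP factors (letters TTGCNNAA) and the SMAD element (letters CAGAC). No matches overlap in the windows shown. The SMAD element, through which BMP and TGF-beta signals can act, was matched 2 times in Dlk1 and 1 time each in Pi16 and Sfrp2, and 42.2% of 32851 RefSeq promoter windows of this length hold it. Pi16 held a CCAAT box beginning 64 bases before the start (33.8% of windows), and Sfrp2 a C/EBP core beginning 45 bases before it (9.56% of windows). By base composition the 3 windows differed: 63.6% G or C with 16 CpG in Sfrp2, 54.8% with 8 in Dlk1, and 52.4% with 2 in Pi16, against medians of 52.4% and 6 over all windows. RefSeq windows were matched for 5 of the 6 genes, Cd248 being the other. The window of Cd34 (46.4% G or C) held none of the 7 patterns, and the windows of the 2 listed starts of Zfp423 had 64.8% and 71.6% G or C, with 3 and 1 E-box matches (66.2% of windows) and 1 and 2 GC box matches (32.7%). The Zfp423 window with 64.8% also held an EBF core beginning 28 bases before the start (11.8% of windows), and the other a C/EBP core beginning 131 bases before it. A match describes these letters and is not evidence of a binding site.

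Cd34 and Cd248 are surface antigens by which stromal cells are recognised. Cd34, a sialomucin of adipose progenitors that endothelial and blood-forming cells carry too, gave 9.33 in WT and 9.99 in H4-TG. The H4-TG value was higher by 0.66, or 1.58-fold, and its difference was at rank 1077 of all probes. Its probe (chromosome 1, 196765080 to 196787475 in the authors' table) was at rank 3215 by signal in WT and 1726 in H4-TG. Beside 2.44% of all probes, only 1 of the 15 genes of the endothelial list (6.67%), Cd34 itself, was in the authors' table. Pecam1, Cdh5 and Kdr, which define endothelium, were not in it and have no value here, so the part of endothelial cells in the Cd34 difference was not tested.

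Cd248, or endosialin, is a membrane glycoprotein of fibroblasts and pericytes. Its signal was 7.47 in WT and 8.36 in H4-TG. H4-TG was higher by 0.89, or 1.85-fold, a difference at rank 454 of all probes. The probe (chromosome 19, 5068078 to 5070643 in the authors' table) moved from rank 11395 by signal on the WT array to 6282 on the H4-TG array. Among pericyte and smooth muscle markers 1 of 13 (7.69%, beside 2.44% of all probes) was in the table. It was desmin (Des, 8.02 on WT and 8.78 on H4-TG), which skeletal muscle expresses too. Cspg4, Rgs5 and Kcnj8, which define pericytes, were not in the table, and the part of pericytes in the Cd248 difference was not tested.

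Dlk1 and Zfp423 are known from preadipocytes, though not from these cells alone. Dlk1 (Pref-1) is a membrane protein with EGF-like repeats, related to Notch ligands, whose shed ectodomain keeps preadipocytes from differentiating. It had the lowest signal of the 6 probes, 6.28 on the WT array, just under that array's median of 6.34, and 6.97 in H4-TG. H4-TG was higher by 0.69, or 1.61-fold, at rank 967 by difference. By signal, its probe (chromosome 12, 110691433 to 110698901 in the authors' table) went from rank 18118 to rank 13769.

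Zfp423, a zinc finger transcription factor that commits mesenchymal cells to the preadipocyte fate and in white adipocytes holds back thermogenic genes, had 7.11 in WT and 7.70 in H4-TG. The difference of 0.59, or 1.51-fold, was the smallest of the 6 and was at rank 1469 of all probes. Zfp423 therefore stood close to the lower limit of the authors' table, in which 52 of 869 rows had a smaller difference. Its probe (chromosome 8, 90185709 to 90483494 in the authors' table) was at rank 13431 by signal in WT and 9535 in H4-TG. The 2 preadipocyte regulators have opposed known roles, Dlk1 against differentiation and Zfp423 for commitment. Both were higher on the H4-TG array by less than Pi16, Cd248 or Sfrp2 were. Cd34, at 0.66, lay between Zfp423 and Dlk1 (0.69), so the 2 regulators were not set apart from all the other genes.

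Sfrp2, a secreted frizzled-related protein that binds Wnt ligands and can dampen or strengthen their signal, had the largest difference of the 6. Its log2 signal was 7.04 in WT and 8.20 in H4-TG. The H4-TG array was higher by 1.16, or 2.23-fold, at rank 210 of all probes by difference, and 100 of the 869 rows of the authors' table had a larger one. By signal, the Sfrp2 probe (chromosome 3, 83570243 to 83578608 in the authors' table) went from rank 13806 on the WT array to 6978 on the H4-TG array, the largest gain in places of the 6.

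**Figure D2:**
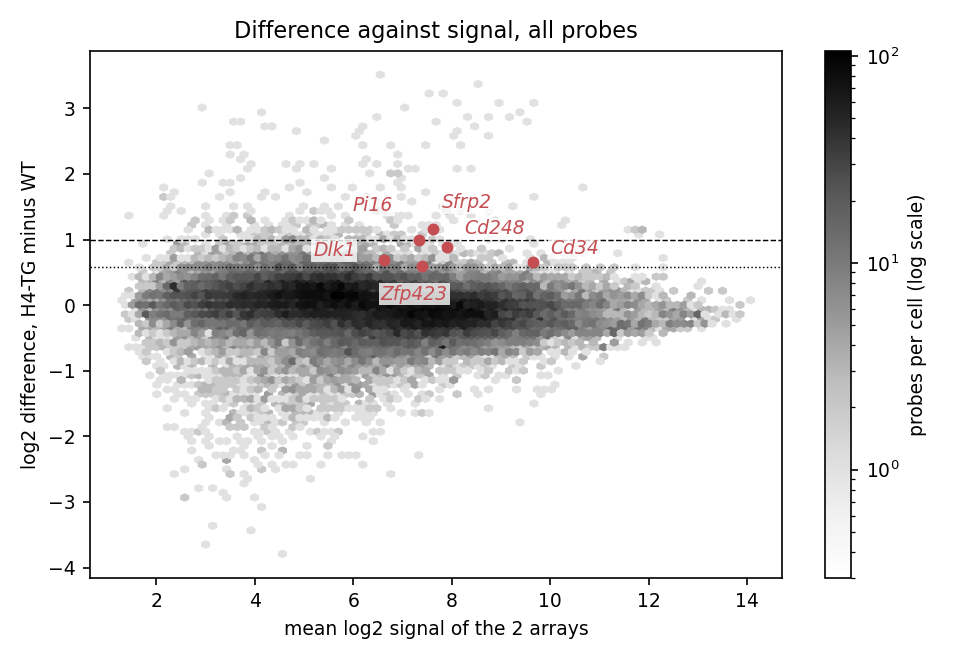
Log2 difference, H4-TG minus WT (y axis), against mean log2 signal of the 2 arrays (x axis) for all 35556 probes, as hexagons shaded by the number of probes, with the 6 genes in red and lines at 1.5-fold (dotted) and 2-fold (dashed). The 6 genes lie at the upper edge of the dense band of probes, between 0.59 and 1.16, and scattered probes lie above them.

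Because the spread of differences depends on signal level, each gene was also set beside the probes whose mean log2 signal lay within 0.25 of its own, a range chosen after seeing the data. Between 1010 (around Cd34) and 2925 (around Dlk1) probes lay in these ranges. The share of such probes with a difference at least as high was 0.391% for Sfrp2, 0.457% for Pi16, 0.685% for Cd248, 0.990% for Cd34, 2.26% for Zfp423 and 2.43% for Dlk1. The shares are low by the choice of the genes, since the authors' table begins at 1.5-fold, and nothing is read from their size. Sfrp2 and Pi16 came first by these shares, which are counted from the difference itself, and by difference alone. Dlk1 (0.69) was ahead of Cd34 (0.66) by difference as deposited, but not by share. That order by difference turned under both quantile normalization and centring along signal level. Differences of the same size in the other direction, lower in H4-TG, were more frequent around each of the 6: 0.462% of probes around Sfrp2, 1.30% around Pi16, 1.07% around Cd248, 2.77% around Cd34, 7.06% around Zfp423 and 6.09% around Dlk1. The median difference of the probes of like signal was between -0.10 and -0.03.

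**Figure D3:**
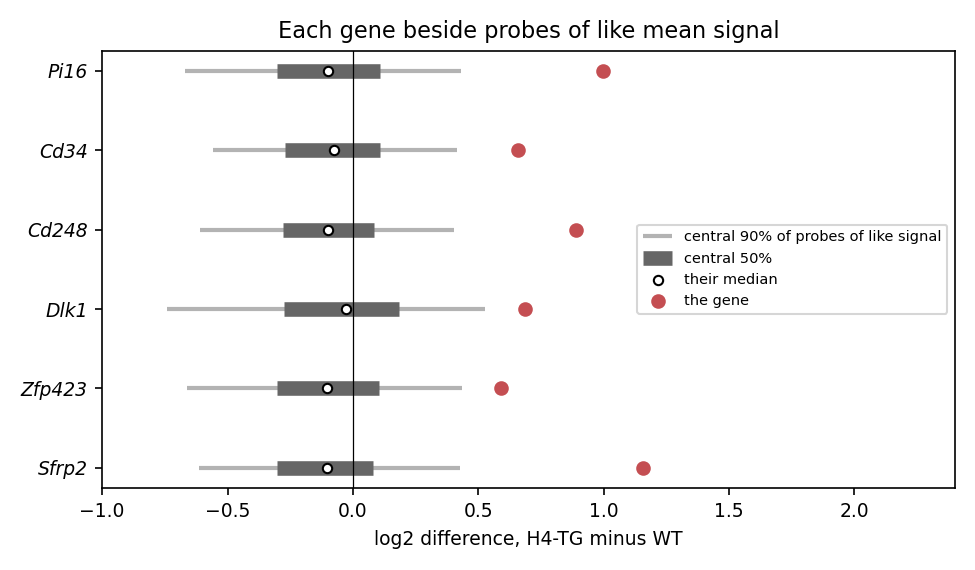
Log2 difference, H4-TG minus WT (x axis), of each of the 6 genes (red) beside the probes whose mean log2 signal lies within 0.25 of that gene's: their median (open point), central 50% (thick bar) and central 90% (thin bar). All 6 genes lie above the central 90% of probes of like signal, which the 1.5-fold limit of the authors' table fixes, since each of these ranges ends below it.

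Other genes of these cell states were looked up in 4 stromal lists (interstitial progenitors, committed preadipocytes, adipogenesis-regulating stroma and general stromal markers) with 67 distinct genes. The authors' table held 14 of them, 13 above the signal minimum, with a median difference of 0.70. Without the 6 genes chosen here, 8 of 61 (13.1%) were in it, beside 2.44% of all probes and 25 of 284 (8.80%) over all list genes outside skeletal muscle and the 6. The 61 genes are themselves among the 284, and a share of probes is not a share of genes. Neither is a separate background of like kind. The 2.44% counts all 35556 probes, and 6622 of them have identifiers below the lowest in the authors' table and so no row. A gene not in the table has no value here and could be past 1.5-fold. These counts thus do not show how many stromal genes were higher, equal or lower.

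Among 18 interstitial progenitor markers, Akr1c18 and Fndc1 were listed beside Pi16, so 16.7% of the list had a row, beside 2.44% of all probes. Akr1c18, a steroid dehydrogenase that inactivates progesterone, was 2.92-fold higher (5.43 on WT, 6.97 on H4-TG), below the signal minimum. Fndc1, a fibronectin type III domain protein, was 1.65-fold higher (7.09 on WT, 7.80 on H4-TG). Dpp4 and Cd55, which define this population, were not in the table. Committed preadipocyte markers had 5 of 19 listed (26.3%). Beside Dlk1 and Zfp423 these were the apolipoprotein Apoc1 (1.67-fold), the calcification inhibitor Mgp (1.58-fold) and the BMP family member Gdf10 (0.59 on the log2 scale). Gdf10 was also the only 1 of 10 genes of the regulatory stroma listed (10%). Icam1, Pparg, Fabp4 and Cd36 were not in the table. The general stromal list had 6 of 22 (27.3%): Cd34, Cd248, Sfrp2, the microfibril protein Mfap5 (1.71-fold), the small proteoglycan lumican (Lum, 1.60-fold) and the secreted glycoprotein Fstl1 (1.54-fold). The interstitial, preadipocyte and general stromal shares include genes chosen here. Pdgfra, Ly6a and Dcn were not in the table.

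Of 55 genes of Wnt ligands, receptors and modulators, 2 were in the authors' table, and both are secreted frizzled-related proteins. That is 3.64% of the list, and includes Sfrp2, itself a chosen gene, while 2.44% of all probes have a row in the table, so the share is near the background. Sfrp4, the other beside Sfrp2, had 5.28 in WT and 6.01 in H4-TG, 1.65-fold more and below the signal minimum. No Wnt ligand, frizzled receptor or R-spondin of the list was in the table, nor the Wnt target Axin2. Among 36 BMP pathway and commitment regulators 2 were listed (5.56%), Zfp423 and the type I BMP receptor Bmpr1a. Bmpr1a was 1.70-fold higher (8.58 on WT, 9.35 on H4-TG). In the Dlk and Notch list Dlk1 was the only 1 of 16 listed (6.25%), and no Notch receptor or Hes and Hey target gene was in the table. Both lists include a chosen gene, and nothing particular to them is read from their shares.

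**Figure D4:**
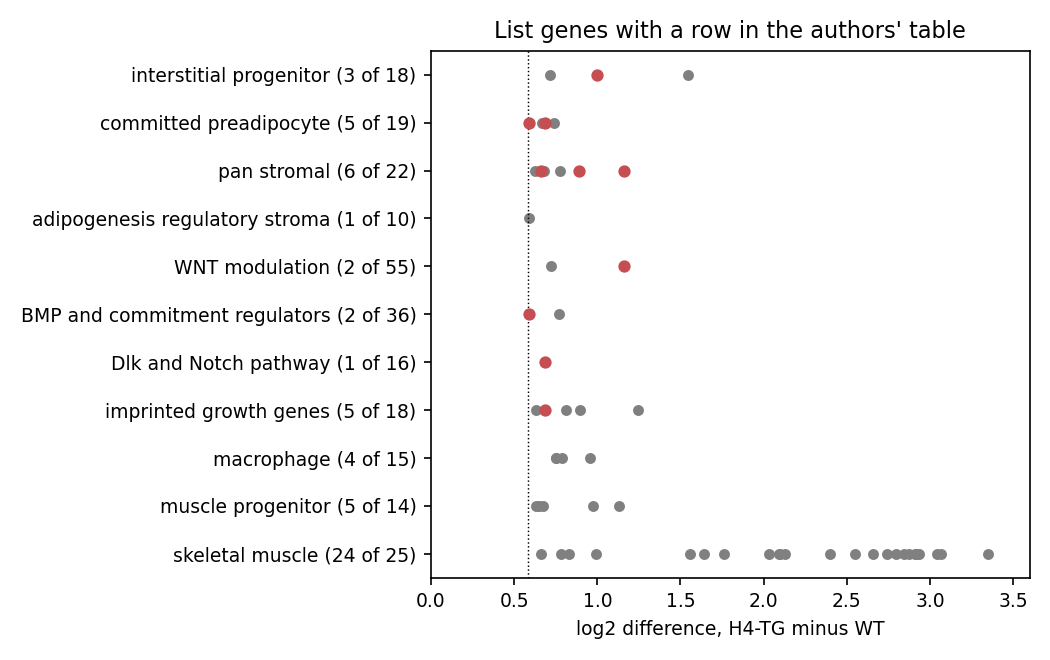
Log2 difference, H4-TG minus WT (x axis), of list genes with a row of 1 symbol in the authors' table, by list. The number listed of the number on the list is in brackets. The 6 genes chosen here are red, other genes grey, and the dotted line is 1.5-fold. Stromal, Wnt and BMP genes lie between 0.59 and 1.54, and skeletal muscle genes reach 3.35.

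Markers of skeletal muscle were higher on the same array. Rows in the authors' table were found for 24 of 25 muscle list genes (96%), beside 2.44% of all probes. Their differences ran from 0.66 to 3.35 with a median of 2.48. Their summed linear signal was 5.47 times as high on the H4-TG array (10.2-fold for Pvalb, the calcium buffer of fast fibres). The summed linear signal of the 6 stromal genes was 1.72 times as high. Cd34 alone gave 643 of 1283 units of this sum on the WT array and 1016 of 2201 on the H4-TG array. Skeletal muscle has stromal progenitors of its own, which express Cd34, and Dlk1 is active in developing muscle. Of 14 muscle progenitor and regeneration markers 5 were in the table (35.7%), all below the signal minimum. Their largest differences were 1.13 for Myf6 and 0.97 for Chrna1. Myod1 (5.71 on WT, 6.38 on H4-TG) and Myog (4.58 on WT, 5.22 on H4-TG) were among them too. Pax7 and Myf5 were not in the table. Macrophage markers had 4 of 15 listed (26.7%), with differences from 0.75 to 0.96. Mesothelial markers had 1 of 10 (10%), Krt19 (4.67 on WT, 5.34 on H4-TG). No tendon and fascia, skin or mammary epithelial marker was in the table. The part of muscle tissue and its stroma in the differences of the 6 genes was not tested.

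With 2 arrays no likeness of pattern can be measured over samples, so for each gene the 2 named genes nearest to it in both log2 signals were taken. Nearest to Zfp423 were Gdf10 (7.10 on WT, 7.69 on H4-TG), which is on the preadipocyte list too, and Hspa12b (7.06 and 7.72). Nearest to Cd248 were the imprinted gene Peg3 (7.44 and 8.33) and Acsm3 (7.51 and 8.36). Next to Dlk1 stood Mc5r, a melanocortin receptor (6.28 and 7.01), and Kcnk2 (6.31 and 6.91), and next to Cd34 Slc1a3, a glutamate transporter (9.37 and 10.01), and 4931406C07Rik (9.41 and 9.99). Pi16 was nearest to Adssl1, an enzyme of the purine nucleotide cycle in muscle (6.92 and 7.74), and Ppp1r3c, a glycogen-targeting phosphatase subunit (6.82 and 7.99). Sfrp2 had no named gene closer than Adgrd1 (7.12 and 8.11), followed by Cacna2d1 (7.19 and 8.22). Only named genes, all from the table of higher probes, were searched, so each neighbour was higher in H4-TG by the choice. Such nearness is of 2 signals and carries no p-value.

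**Figure D5:**
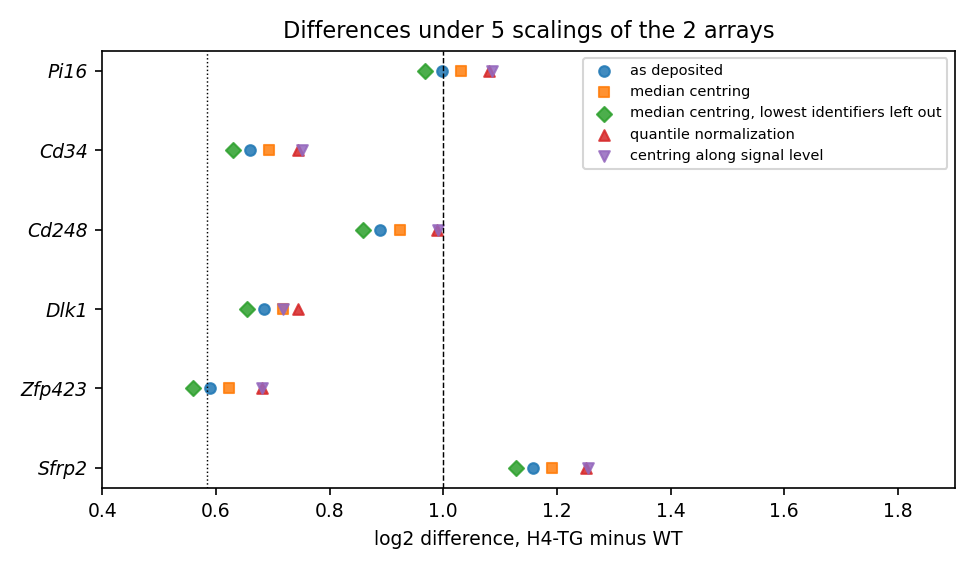
Log2 difference, H4-TG minus WT (x axis), of the 6 genes as deposited and under 4 other scalings of the 2 arrays, with lines at 1.5-fold (dotted) and 2-fold (dashed). The order of Sfrp2, Pi16 and Cd248 is the same in all 5, Pi16 lies on both sides of the 2-fold line, and Zfp423 on both sides of the 1.5-fold line.

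The scaling between the arrays is not stated, and 4 other scalings were computed. Sfrp2 ranged from 1.13 to 1.26 on the log2 scale, Pi16 from 0.97 to 1.09, Cd248 from 0.86 to 0.99, Cd34 from 0.63 to 0.75, Dlk1 from 0.66 to 0.74 and Zfp423 from 0.56 to 0.68. Pi16 passed 2-fold under 3 of the 4. Zfp423 was under 1.5-fold (0.56) when the arrays were centred on the median of probes outside the lowest identifiers of the array. These are the identifiers below the lowest in the authors' table. Probes without a row in that table carry no gene name in the files, whatever their identifier.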

How the data were processed

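Per the labels' protocols, Trizol-extracted RNA of 4 animals per genotype was pooled, biotin-labelled and hybridised to 1 mouse gene array (version 1.0). The authors deposited a log2 signal for each of 35556 probes of each array. The submitters' processing notes name MAS5 without version or settings, and do not say how the arrays were scaled. A second deposited table gives, per the file headers, rounded log2 bi-weight signals and the linear fold ratio of H4TG over CON for 869 probes, all higher in H4TG. Its signals lay within 0.005 of the value table. Its gene symbols were the only probe names. They were updated through mouse RefSeq genes of GRCm38, which matched 802 of 822 rows with 1 symbol, while 47 rows with several symbols were not assigned; the brightest probe stood for a gene, and 800 genes resulted. The smallest unrounded fold in the table was 1.495.

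Differences are log2 H4-TG minus log2 WT as deposited. The signal minimum was the median of all probe means, 6.31. The 18 gene lists, the 6 genes and the settings were chosen with earlier results of these data known. The genes named were the 6, up to 8 listed members of each list, and the 2 nearest named genes of each of the 6; of the muscle list and the muscle progenitor and macrophage lists fewer are given. Genes that define a cell type and were not in the table were named after looking. Scaling alternatives were median centring over all probes, the same over probes with identifiers from 10344674 (leaving out 6622), quantile normalization and centring along signal level (lowess, span 0.3). Tested on simulated data with 35556 probes, 200 of 200 probes raised by 2 on the log2 scale stood in the top 200 by difference. That rise was far larger than the simulated noise and than the differences of the 6 genes. The result was thus fixed in advance, checks the calculation alone and says nothing about how surely such genes are ranked. Promoter windows came from RefSeq (GRCm38.p6). Precision is limited by the number of arrays. Python 3.11.15, numpy 2.4.6, pandas 2.3.3, statsmodels 0.14.6 and matplotlib 3.10.9 were used.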

Additional observations from a re-analysis of the deposited data

How the results depend on the processing

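Over 6 alternatives for each of the 6 genes (4 scalings, the authors' rounded signals and the mean over probes, which is the same value as each gene has 1 probe), 35 of 36 log2 differences moved by at most 0.1 and none changed sign. The exception was Cd248, 0.99 after centring along signal level against 0.89. The authors' table lists higher probes alone, so the absence of sign changes says nothing about stability. Of the 6 genes 1 was at least 2-fold higher as deposited and 2 after median centring, quantile normalization, centring along signal level or with the authors' rounded signals, the second being Pi16. At least 1.5-fold higher were 5 of 6 when centred without the lowest identifiers and 6 of 6 otherwise. By construction, probe counts fell with a signal minimum: at 1.5-fold from 1518 to 410, and to 273 in the top 40% of probes; at 2-fold from 317 to 112 and 72. Of the 14 listed stromal genes, 13 remained above the signal minimum. No paired analysis was possible because WT and H4-TG are single arrays, and for that reason none could be left out.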

Other observations

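Dlk1 is an imprinted gene, expressed from the paternal copy, and other imprinted growth genes were in the authors' table. Of 18 on that list 5 had a row with 1 symbol (27.8%), with Dlk1, itself 1 of the 6 chosen genes, among them. The shares beside it are 2.44% of all probes and 8.80% of list genes outside skeletal muscle and the 6 genes. Nothing particular to the list is read from this. H19, a long RNA expressed from the maternal copy and abundant in fetal tissues, was 2.37-fold higher in H4-TG (6.23 on WT, 7.48 on H4-TG). Peg3, a paternally expressed zinc finger gene, was 1.86-fold higher (7.44 and 8.33), and its chromosomal neighbour Zim1 1.76-fold (5.05 and 5.86). Dio3, the thyroid hormone deiodinase of the same imprinted cluster as Dlk1, was 1.55-fold higher (4.29 and 4.92). Zim1 and Dio3 were below the signal minimum. Igf2, Meg3 and Cdkn1c were not among the 5, and the 5 were not tested as a group. Another gene of the list was named in a row with several symbols, which was not assigned, so its value is not given.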
